A study of Homo sapiens with 42 samples.

Results

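The genes described here are the BNIP3 family and its partners in the clearance of mitochondria (BNIP3, BNIP3L, FUNDC1, BCL2L13, PINK1, BECN1 and SQSTM1), together with FAM162A. They were picked by symbol and make up 8 of the 60609 genes listed for each RNA-seq library. All 8 passed the filter on low counts, which left 23410 genes for testing in the first batch of libraries and 28724 in the second.

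Mitophagy is the delivery of damaged or surplus mitochondria to lysosomes by autophagy. BNIP3, BNIP3L (also called NIX), FUNDC1 and BCL2L13 are receptors in the outer mitochondrial membrane that bind LC3-type proteins directly, whereas the kinase PINK1 marks depolarized mitochondria for ubiquitination, which adaptors such as SQSTM1 (p62) recognize. BECN1 belongs to the lipid kinase complex that starts autophagosomes, and FAM162A is a mitochondrial protein linked to cell death under low oxygen. BNIP3 and BNIP3L are textbook targets of the hypoxia-inducible factors (HIFs), dimers of a HIF-α subunit and HIF-1β.

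All cells were 786-O, an established line from a clear cell renal cell carcinoma that lacks functional VHL, so that its own HIF-2α is stable, and that makes no functional HIF-1α. The question was which part of the HIF-α protein sets the genes it activates. In the first batch, with RNA from an RNeasy kit, the groups were unmodified WT cells, a clone with a Halo tag knocked into both alleles of HIF-1β (HIF-1β KIN), a clone tagged in the same way at HIF-2α (HIF-2α KIN), and 6 lines of WT cells with a stably integrated, Halo-tagged transgene under the weak L30 promoter. The transgenes were HIF-1α, its mutant R30E with impaired DNA binding and its dimerization mutant (HIF-1αDM), and HIF-2α with the corresponding R27E and HIF-2αDM. The second batch, with RNA from TRIzol and another library kit, held WT cells and L30 lines of HIF-1α, HIF-2α and the domain swaps. HIF-2α/1α joins the N-terminal structured part of HIF-2α, which binds DNA and HIF-1β, to the C-terminal intrinsically disordered region (IDR) of HIF-1α, whereas the reverse swap is called HIF-1α/2α. Every group had 3 libraries, given as biological replicates in the study's methods. Each KIN group is 1 clone, so the tag and the clone cannot be told apart. The L30 lines were drug-selected pools with uneven expression. No more than 1 line of each transgene is named in a batch, so the transgene and the line cannot be told apart there either. The genotype label of the HIF-2αDM libraries names HIF-1α, and they were taken as HIF-2αDM from their titles.

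Counted reads per library ran from 42377599 to 101186554 in batch 1 and from 76366799 to 109642159 in batch 2, so that even FUNDC1 and FAM162A, the members with the fewest reads, had at least 222 and 205 reads in every library. Of batch 1, the libraries numbered 3 of all 9 groups stood apart from the others on the second principal component, at scores of 18.3 to 26.8 against -17.6 to -5.04. Leaving them out, a choice made after seeing this, changed no member's call: with HIF-1α the log2 change from WT was then 2.73 for BNIP3, 2.17 for BNIP3L and 2.67 for FAM162A, and with HIF-2α it was 1.41 for BNIP3L. Reads of a transgene count on HIF1A or EPAS1, the genes of HIF-1α and HIF-2α. HIF1A was at 238, 231 and 257 normalized counts in the WT libraries of the first batch, at 2017 to 3245 in those with a HIF-1α transgene and at 667 to 1216 in those of the HIF-2α line. EPAS1 was at 12563 to 16596 in WT, at 40654 to 67163 in the lines with a HIF-2α transgene and at 20941 to 25911 in the HIF-1α line, so each gene was also above every WT library in the line of the other protein. In the second batch HIF1A was at 13161 ± 494 (SD, n = 3 here and below) in HIF-1α, 9625 ± 75.7 in HIF-2α/1α and 9734 ± 623 in HIF-1α/2α, and no WT library was above 313. EPAS1 was there at 12621 ± 820.0 in WT, 16360 ± 1137 in HIF-1α, 20745 ± 1262 in HIF-2α/1α, 42541 ± 319.8 in HIF-2α and 51430 ± 3088 in HIF-1α/2α. Each swap codes for only a part of either protein. Its HIF1A and EPAS1 counts therefore do not compare directly with those of an intact transgene. The part of these levels in what follows was not tested. The renal markers PAX8, PAX2, CDH6 and LHX1 and the mesenchymal marker VIM were detected in all 42 libraries, while ALB, PTPRC and PECAM1 had at most 14, 9 and 5 reads. Counting ignored strand. Every member but FUNDC1 and BCL2L13 overlaps another gene of GENCODE release 44, whose coordinates are used below. In the union mode of counting named in the study's methods, reads on exons shared by genes are assigned to none of them. The 39 pseudogenes named for BNIP3 held together at most 2.36% as many reads as BNIP3 in any library.

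A normalized count is the read count divided by the library's size after edgeR's TMM scaling, times the mean scaled size of its batch, so levels compare between libraries of a batch but not between batches. A gene was called changed at a Benjamini-Hochberg adjusted p of at most 0.01 over all genes tested, from edgeR's quasi-likelihood test, together with a change of at least 2-fold. Of the 8 genes, 3 were called in any comparison: BNIP3, BNIP3L and FAM162A. BNIP3 and FAM162A were called higher than in WT in the HIF-1α line of both batches and in no other line. BNIP3L was called higher in every L30 line whose transgene was HIF-1α or HIF-2α without a mutation, or a swap. The map of log2 changes from WT shows this division.

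**Figure D1:**
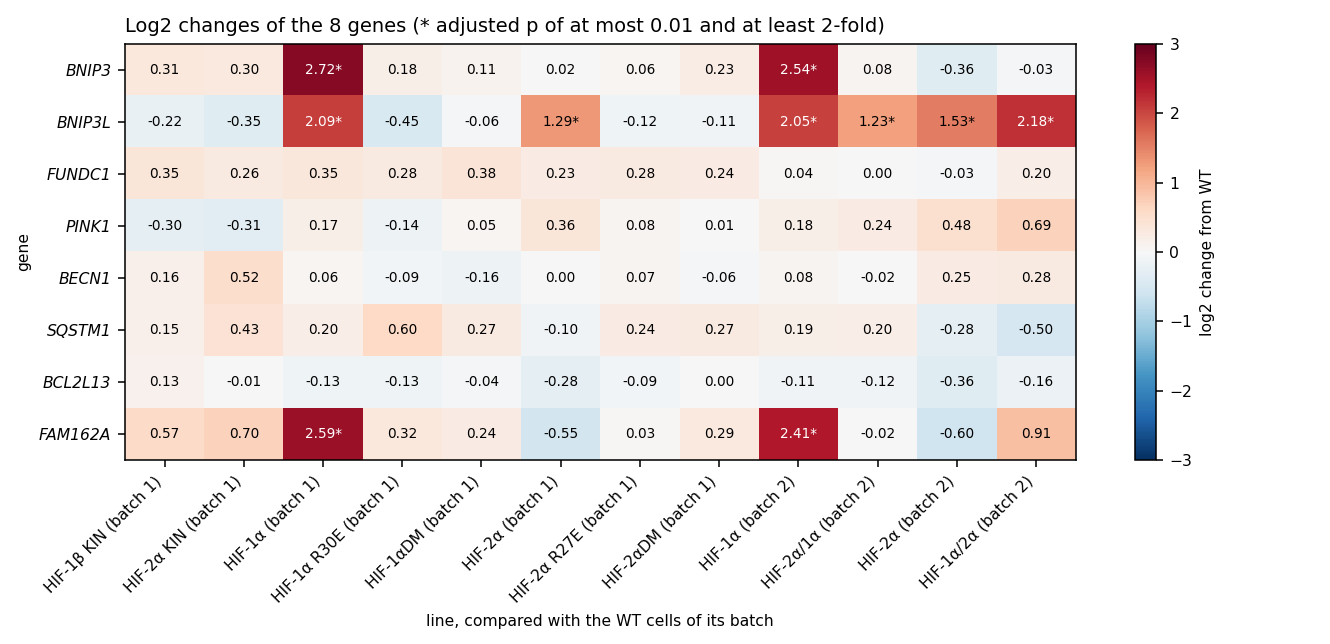
Log2 change of each of the 8 genes (vertical axis) in each of the 12 lines (horizontal axis) from the WT cells of the same batch, as fitted by edgeR, with color and number both giving the log2 change and stars marking called changes. The starred cells lie in the BNIP3, BNIP3L and FAM162A lines of the map, and the 4 mutant transgenes and the 2 KIN clones have none.

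The comparison of each line of batch 1 with WT asked what the tag or the transgene changed. With HIF-1α, 3 of the 8 genes were called higher and none lower, beside 3.79% of all genes called in either direction. With HIF-2α, 1 of 8 was called higher, beside 5.72% of all genes. No member was called with HIF-1α R30E (2.61% of all genes called), HIF-1αDM (0.457%), HIF-2α R27E (0.496%) or HIF-2αDM (0.474%), nor in the clones HIF-2α KIN (4.14%) and HIF-1β KIN (1.38%). At an unadjusted p under 0.05, the members that differed from WT by the same edgeR test numbered 3 in HIF-2α KIN, 2 with HIF-1α R30E and 1 in HIF-1β KIN, and none with the other mutants. DESeq2 called none of the 8 in these lines either. Set against its mutants directly, HIF-1α had 3 of 8 members called higher than R30E and 3 of 8 higher than DM, where 1.75% and 1.37% of all genes were called. HIF-2α had 1 of 8 called higher than R27E and 1 of 8 higher than its DM, where 3.63% and 3.96% of all genes were called.

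The second batch compared the intact proteins with the domain swaps. Against WT, 3 of the 8 genes were called higher with HIF-1α (4.39% of all genes called), and 1 of 8 with HIF-2α (7.58%) and with each swap (3.49% for HIF-2α/1α, 7.78% for HIF-1α/2α). That gene was BNIP3L in each of the 3 lines. The spread between libraries was smaller in this batch, and changes under 2-fold often passed the adjusted p. By the p alone, 4 members passed with HIF-1α (17.2% of all genes), 7 with HIF-2α (27.4%), 3 in the HIF-2α/1α line (16.7%) and 5 in its reverse, HIF-1α/2α (27.8%).

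BNIP3 (ENSG00000176171.11, chr10:131967684-131981967 on the minus strand, hg38) encodes the receptor that gives the family its name. In the first batch it was at 4326, 4135 and 4069 normalized counts in the WT libraries and at 27620, 27114 and 27899 in those with HIF-1α. The HIF-1α libraries lay far above all others. The change was 6.59-fold, a log2 change of 2.72 (SE 0.17, adjusted p = 1.85e-11). With HIF-2α, BNIP3 was at 4167, 4357 and 4171, which overlapped WT, and the log2 change was 0.02 (95% interval -0.30 to 0.34, adjusted p = 0.962). The 4 mutant lines lay at 3698 to 6094, and their changes from WT ran from 0.06 to 0.23 with adjusted p of 0.639 or more. Compared directly, HIF-1α stood above R30E by 2.54 (SE 0.16, adjusted p = 5.75e-11) and above DM by 2.61 (SE 0.16, adjusted p = 5.96e-11) on the log2 scale. In the 2 KIN clones BNIP3 was at 4440 to 6153. Below HIF-1α each group overlapped its neighbor in rank, although WT, the lowest, lay wholly below HIF-1αDM, HIF-2αDM and both KIN clones, none of which passed the test.

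**Figure D2:**
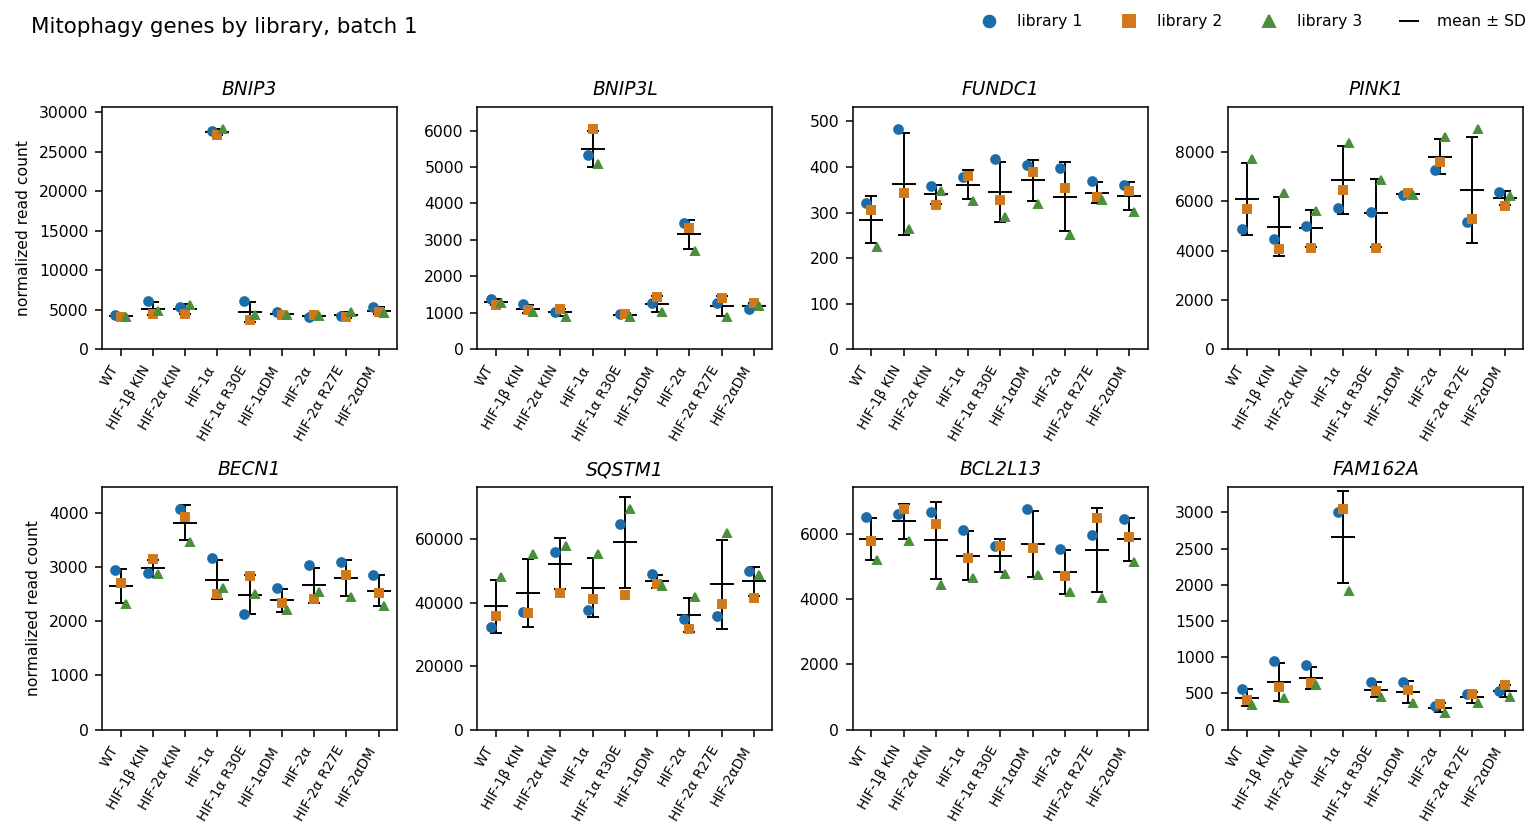
Normalized counts of the 8 genes in the 27 libraries of the first batch, one panel per gene, with groups on the horizontal axis, a symbol for each library and bars for the mean ± SD. BNIP3 and FAM162A are high in the HIF-1α libraries, BNIP3L is high in the HIF-1α and HIF-2α libraries, and the other 5 genes overlap between most groups, apart from BECN1 in HIF-2α KIN.

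In the second batch BNIP3 was at 7544, 7975 and 7779 normalized counts in WT and at 46154, 46840 and 42306 with HIF-1α, a rise of 5.81-fold and a log2 change of 2.54 (SE 0.05, adjusted p = 3.27e-34). HIF-2α/1α gave 8058, 8205 and 8445 and HIF-1α/2α gave 7581, 7775 and 7446. Neither swap came near the HIF-1α libraries: the log2 changes from WT were 0.08 (95% interval -0.02 to 0.19, adjusted p = 0.265) and -0.03 (95% interval -0.14 to 0.07, adjusted p = 0.704). With HIF-2α, BNIP3 was at 6176, 5811 and 6183, below every WT library, a fall that passed the adjusted p without reaching 2-fold, with a log2 change of -0.36 (SE 0.05, adjusted p = 1.64e-07). In order of level HIF-2α stood lowest, HIF-1α/2α and WT overlapped, HIF-2α/1α stood just above WT without overlap, and HIF-1α stood highest.

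**Figure D3:**
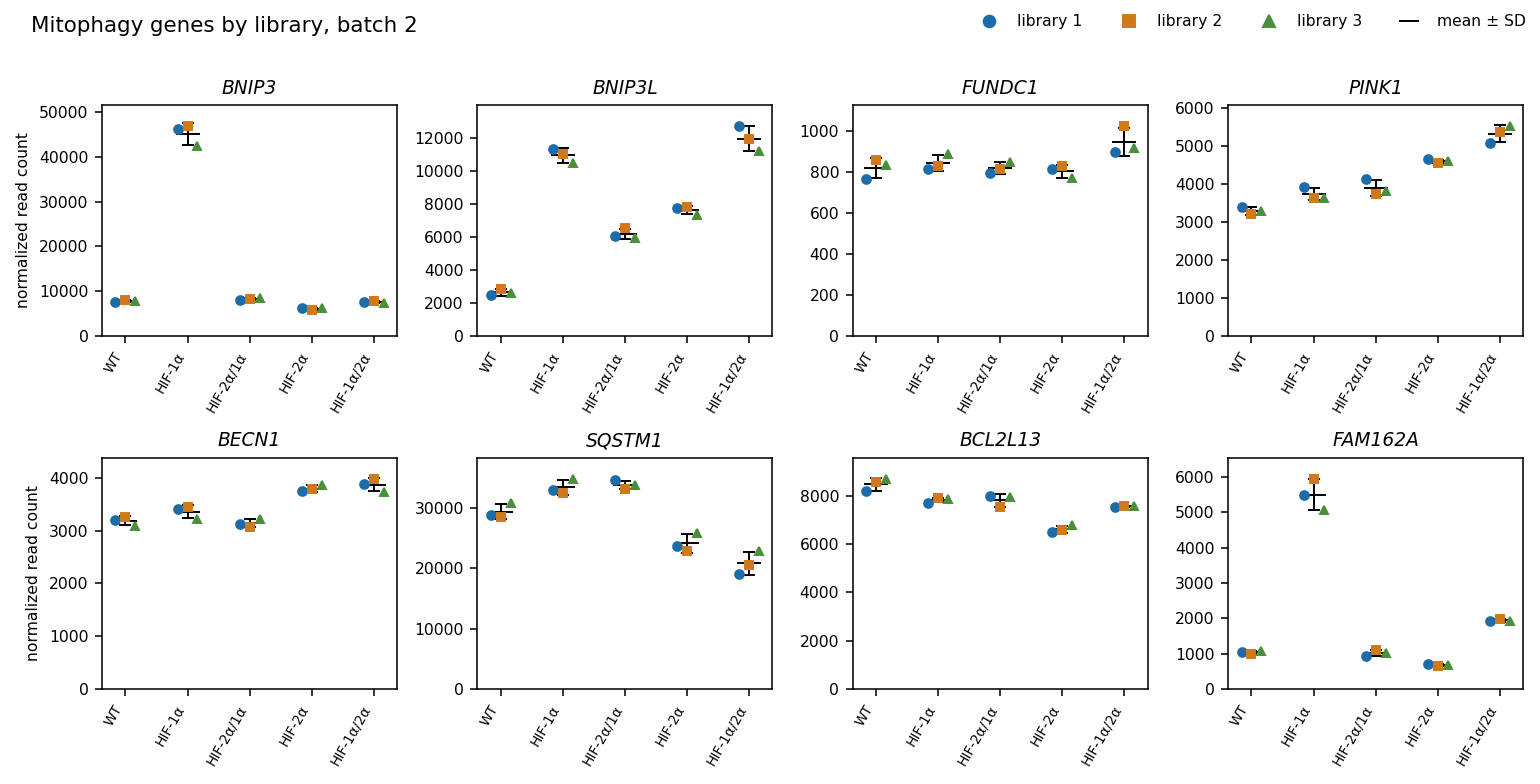
Normalized counts of the 8 genes in the 15 libraries of the second batch, one panel per gene, with groups on the horizontal axis, a symbol for each library and bars for the mean ± SD. BNIP3 is high with HIF-1α alone at 42306 to 46840, whereas all 4 transgenic lines lie above WT for BNIP3L.

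The 4 L30 lines of the second batch form a factorial design in which the structured part and the IDR each come from HIF-1α or HIF-2α. An IDR effect is the mean log2 level with the HIF-2α IDR minus that with the HIF-1α IDR, a structured-domain effect is the same difference for the structured part, and their interaction is the IDR difference on the HIF-2α structured part minus that on the HIF-1α structured part. Each of the first 2 effects called 2 of the 8 genes lower, BNIP3 and FAM162A, beside 4.41% of all genes for the IDR and 1.04% for the structured domain. The direct comparison of HIF-2α with HIF-1α called the same 2 genes lower, beside 3.78% of all genes. The interaction called 1 of 8, BNIP3, beside 1.18%. By the adjusted p alone, 7 members passed for the IDR (24.7% of all genes), 3 for the structured domain (11.4%), 6 for HIF-2α against HIF-1α (17.6%) and 2 for the interaction (5.37%).

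For BNIP3 the IDR effect was -1.51 (SE 0.04, adjusted p = 1.04e-32), the structured-domain effect -1.39 (SE 0.04, adjusted p = 2.66e-30) and the interaction 2.13 (SE 0.07, adjusted p = 1.84e-25) on the log2 scale. The IDR difference was thus unequal on the 2 structured parts. On the HIF-1α structured part, the HIF-2α IDR in place of the HIF-1α IDR went with 5.93-fold less BNIP3, a log2 difference of -2.57 (SE 0.05, adjusted p = 3.92e-35). On the HIF-2α structured part the same exchange gave -0.44 (SE 0.05, adjusted p = 3.03e-09). Exchange of the structured part gave -2.45 (SE 0.05, adjusted p = 2.42e-33) with the HIF-1α IDR and -0.33 (SE 0.05, adjusted p = 3.43e-06) with the HIF-2α IDR. BNIP3 was thus high only where both parts came from HIF-1α, among the 4 lines.

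**Figure D4:**
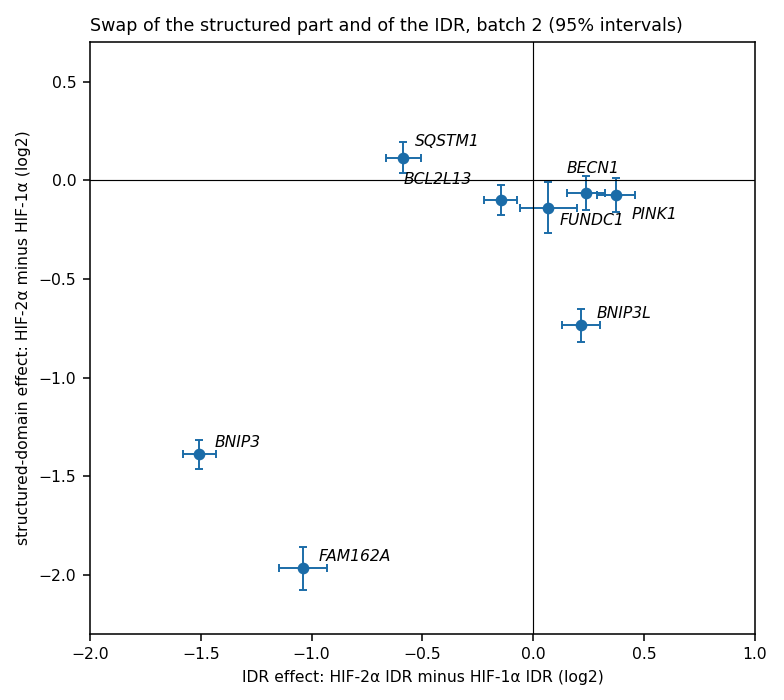
IDR effect (horizontal axis) against structured-domain effect (vertical axis) for the 8 genes in the second batch, both as log2 of HIF-2α over HIF-1α, with 95% intervals. BNIP3 and FAM162A lie low on both axes, BNIP3L lies low on the structured-domain axis alone at -0.74, and SQSTM1 lies low on the IDR axis alone at -0.59.

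HIF dimers are known to bind hypoxia response elements around the core ACGTG or GCGTG. The promoters of BNIP3 and FAM162A are shown because these genes shared the HIF-1α response, with the core on either strand in capitals (CACGT or CACGC where it lies on the other strand). Each line holds the 200 bases that end 51 bases before the RefSeq start site, in GRCh38.p14, at chr10:131981974-131982173 on the minus strand and chr3:122383932-122384131 on the plus strand.
BNIP3: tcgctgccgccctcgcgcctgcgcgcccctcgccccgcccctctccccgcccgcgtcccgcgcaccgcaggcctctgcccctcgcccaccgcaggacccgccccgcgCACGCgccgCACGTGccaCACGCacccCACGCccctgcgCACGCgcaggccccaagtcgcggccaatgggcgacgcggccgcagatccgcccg
FAM162A: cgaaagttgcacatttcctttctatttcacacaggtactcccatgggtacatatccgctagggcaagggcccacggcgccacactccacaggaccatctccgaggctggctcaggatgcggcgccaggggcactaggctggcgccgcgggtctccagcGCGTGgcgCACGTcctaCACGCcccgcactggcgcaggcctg
The BNIP3 stretch held 6 matches, of which the pair in CACGTG covers the same bases on both strands, and the matches lay from -143 to -104 relative to the start site. The FAM162A stretch held 3, and the full window of 300 bases (250 before the start site and 50 after) held 4. Of 35116 such RefSeq windows, 48.4% held at least 1 match, 4.4% at least 4 and 0.923% at least 6. Among the other members with a window, FUNDC1, BECN1 and the 3 start sites of SQSTM1 had none, and 1 of 3 windows of BCL2L13 had 1. BNIP3L, which also rose with HIF-1α, and PINK1 had no window and were not examined. A match describes the letters and shows no binding.

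BNIP3L (ENSG00000104765.16, chr8:26383054-26505636, plus strand) encodes the receptor best known for clearing mitochondria from maturing red blood cells. Unlike BNIP3, it rose with both HIF-α proteins. The WT libraries of batch 1 were at 1378, 1217 and 1282 normalized counts, those with HIF-1α at 5340, 6043 and 5076 and those with HIF-2α at 3458, 3319 and 2710. The 3 groups did not overlap. HIF-1α raised it 4.25-fold, a log2 change of 2.09 (SE 0.17, adjusted p = 1.52e-09), and HIF-2α raised it 2.45-fold, 1.29 (SE 0.16, adjusted p = 1.65e-06). The 4 mutant lines were at 892 to 1438 with fitted log2 differences from WT of -0.45 to -0.06, with adjusted p of 0.116 or more. HIF-1α stood above R30E by 2.53 (SE 0.17, adjusted p = 6.22e-11) and above DM by 2.14 (SE 0.17, adjusted p = 1.87e-09). HIF-2α stood above R27E by 1.41 (SE 0.16, adjusted p = 6.33e-07) and above its DM by 1.40 (SE 0.16, adjusted p = 6.69e-07).

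In the second batch BNIP3L was at 2450, 2829 and 2622 in WT and higher in every transgenic library. It was at 6030, 6544 and 5945 in the HIF-2α/1α line and at 7734, 7815 and 7343 in that of HIF-2α. The HIF-1α libraries were at 11312, 11034 and 10461 and the HIF-1α/2α libraries at 12707, 11900 and 11208. Only HIF-1α and HIF-1α/2α overlapped, and the lines with the structured part of HIF-1α lay above those with that of HIF-2α. The intact proteins gave log2 changes from WT of 1.53 (SE 0.06, adjusted p = 7.67e-25) for HIF-2α and 2.05 (SE 0.06, adjusted p = 9.23e-29) for HIF-1α. The swaps gave 1.23 (SE 0.06, adjusted p = 9.18e-21) for HIF-2α/1α and 2.18 (SE 0.06, adjusted p = 1.93e-30) for HIF-1α/2α. The structured-domain effect was -0.74 (SE 0.04, adjusted p = 2.68e-18), which is under 2-fold. The IDR effect had the other sign, 0.22 (SE 0.04, adjusted p = 4.03e-05), and the interaction was 0.18 (95% interval 0.01 to 0.35, adjusted p = 0.204). On the HIF-1α structured part the exchange of the IDR gave BNIP3L a log2 difference of 0.13 (SE 0.06, adjusted p = 0.114), beside -2.57 for BNIP3.

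PNMA2 overlaps BNIP3L on the other strand, and reads on exons of both genes are assigned to neither in the counting mode used. It was higher in the lines where BNIP3L was called. In batch 1 its log2 change from WT was 2.52 (adjusted p = 1.02e-07) with HIF-1α and 2.91 (adjusted p = 5.55e-09) with HIF-2α, and no mutant line passed the test. In batch 2 the intact proteins gave 2.37 (HIF-1α) and 2.76 (HIF-2α), and the swaps gave 1.40 (HIF-2α/1α) and 4.17 (HIF-1α/2α), all past the test, with a structured-domain effect of -1.19 (adjusted p = 2.31e-20) and an IDR effect of 1.58 (adjusted p = 8.15e-26). In HIF-1β KIN, PNMA2 fell, with a log2 change of -3.01 (adjusted p = 6.45e-08), beside -0.22 (SE 0.16, adjusted p = 0.634) for BNIP3L. PNMA2 had 15 to 3964 reads per library and BNIP3L 720 to 15329, and the part of their overlap in the BNIP3L values was not tested.

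**Figure D5:**
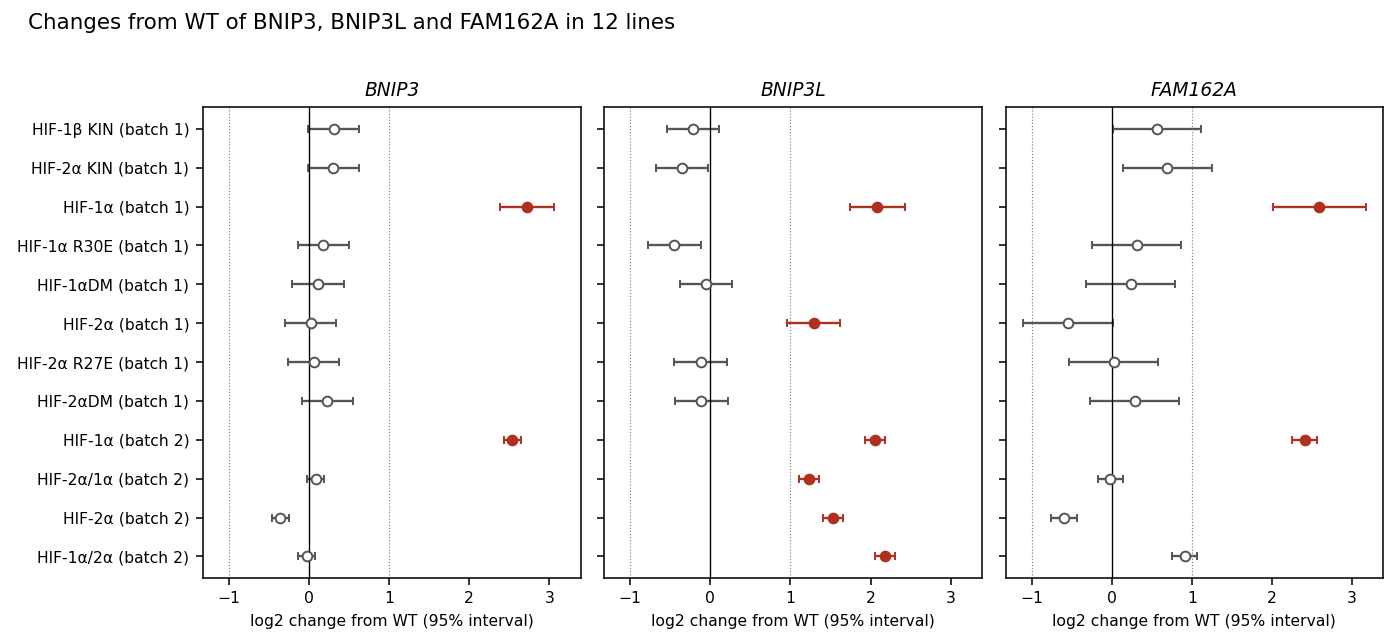
Log2 change from the WT cells of the same batch (horizontal axis, with 95% intervals) of BNIP3, BNIP3L and FAM162A in each of the 12 lines (vertical axis), with filled points for called changes and dotted lines at a 2-fold change. BNIP3 and FAM162A are filled in both HIF-1α lines, and BNIP3L in the HIF-1α and HIF-2α lines of both batches and in both swaps.

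FAM162A (ENSG00000114023.15, chr3:122384161-122412334, plus strand) was called in the same comparisons of the first batch as BNIP3. It was at 566, 411 and 344 normalized counts in WT and at 3009, 3047 and 1921 with HIF-1α, 6.04-fold higher and with no overlap, a log2 change of 2.59 (SE 0.28, adjusted p = 3.13e-07). The mutant lines lay at 360.2 to 657, and HIF-1α stood above R30E by 2.28 (SE 0.28, adjusted p = 3.41e-06) and above DM by 2.36 (SE 0.28, adjusted p = 2.84e-06). With HIF-2α it was at 324, 350.1 and 232, which overlapped WT, with a log2 change of -0.55 (95% interval -1.11 to 0.02, adjusted p = 0.208).

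The second batch gave FAM162A and BNIP3 different values in the HIF-1α/2α swap. WT was at 1041, 983 and 1079, HIF-1α at 5495, 5947 and 5072 and HIF-1α/2α at 1916, 1984 and 1934. The HIF-1α/2α libraries lay between the other 2 groups without overlap, and the log2 change from WT was 0.91 (SE 0.08, adjusted p = 6.13e-14), just under 2-fold, beside 2.41 (SE 0.08, adjusted p = 4.97e-28) for HIF-1α. HIF-2α/1α, at 932, 1099 and 1029, overlapped WT. HIF-2α, at 708, 656 and 688, lay below WT with a log2 change of -0.60 (SE 0.08, adjusted p = 2.29e-08). The structured-domain effect of -1.97 (SE 0.05, adjusted p = 9.11e-30) stood beside an IDR effect of -1.04 (SE 0.05, adjusted p = 1.02e-20), and the interaction of 0.92 (SE 0.11, adjusted p = 1.97e-08) passed the p but not 2-fold. WDR5B, which overlaps FAM162A on the other strand, changed by -0.40 with HIF-1α (adjusted p = 0.00203), opposite in sign to FAM162A.

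PINK1 (ENSG00000158828.8, chr1:20633458-20651511, plus strand), the kinase that senses mitochondrial damage, was not called in any comparison. In the second batch it was at 3397, 3195 and 3283 normalized counts in WT, at 4642, 4554 and 4589 with HIF-2α and at 5084, 5358 and 5517 with HIF-1α/2α. Both lines with the HIF-2α IDR lay above all others. The log2 changes from WT, 0.48 (SE 0.06, adjusted p = 7.4e-09) and 0.69 (SE 0.06, adjusted p = 3.62e-13), passed the p without reaching 2-fold. HIF-2α/1α gave 0.24 (SE 0.06, adjusted p = 0.00209) and HIF-1α gave 0.18 (SE 0.06, adjusted p = 0.0226), and these 2 lines overlapped each other. The IDR effect was 0.38 (SE 0.04, adjusted p = 7.56e-10) and the structured-domain effect -0.08 (95% interval -0.16 to 0.01, adjusted p = 0.258). In the first batch, where the libraries numbered 3 tended higher, PINK1 ranged from 4073 to 8928 with overlap between neighboring groups, and its change with HIF-2α was 0.36 (95% interval -0.09 to 0.81, adjusted p = 0.315). The antisense gene PINK1-AS had 51 to 406 reads, and reads on exons of both genes are assigned to neither.

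SQSTM1 (ENSG00000161011.20, chr5:179806398-179838078, plus strand) encodes the adaptor that links ubiquitinated cargo to LC3. Its values in the second batch split by the IDR in the direction opposite to PINK1. WT was at 28794, 28535 and 30747 normalized counts, HIF-2α at 23655, 22777 and 25893 and HIF-1α/2α at 19001, 20539 and 22839. HIF-1α was at 32918, 32534 and 34769 and HIF-2α/1α at 34548, 33126 and 33751, overlapping each other and above WT, while HIF-2α and HIF-1α/2α overlapped each other below it. The log2 change from WT was -0.28 (SE 0.06, adjusted p = 3.87e-05) for HIF-2α and -0.50 (SE 0.06, adjusted p = 3.18e-10) for HIF-1α/2α. With the HIF-1α IDR it was 0.19 (SE 0.06, adjusted p = 0.0092) for HIF-1α and 0.20 (SE 0.06, adjusted p = 0.00432) for HIF-2α/1α. The IDR effect of -0.59 (SE 0.04, adjusted p = 7.53e-17) was under 2-fold, and the structured-domain effect was 0.12 (95% interval 0.04 to 0.19, adjusted p = 0.0333). No line of batch 1 passed the test for SQSTM1, and HIF-1α R30E, at 64922, 42604 and 69596 beside 32467, 35864 and 48163 in WT, gave the furthest change, 0.60 (95% interval 0.14 to 1.07, adjusted p = 0.142). MGAT4B and MRNIP overlap SQSTM1 on the other strand, with 23780 to 62621 and 149 to 1069 reads. Their IDR effects were -0.004 (adjusted p = 0.972) and -0.02 (adjusted p = 0.904), and the part of the overlap in the SQSTM1 values was not tested.

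BECN1 (ENSG00000126581.13, chr17:42810134-42833350, minus strand) was also not called. With the HIF-2α IDR it was slightly higher in the second batch: WT was at 3197, 3264 and 3092 normalized counts, HIF-2α at 3742, 3788 and 3857 and HIF-1α/2α at 3891, 3974 and 3734, without overlap with WT. The log2 changes were 0.25 (SE 0.06, adjusted p = 0.000638) and 0.28 (SE 0.06, adjusted p = 0.000173), and the IDR effect was 0.24 (SE 0.04, adjusted p = 1.13e-05). With HIF-2α in the first batch BECN1 changed by 0.003 (95% interval -0.30 to 0.31, adjusted p = 0.999). In the first batch its furthest value was in the HIF-2α KIN clone, at 4067, 3922 and 3465 beside 2938, 2706 and 2320 in WT. These libraries did not overlap, and the log2 change was 0.52 (95% interval 0.22 to 0.83, adjusted p = 0.0207). With the library number as a replicate block it was 0.53 (adjusted p = 0.00268), and that of FAM162A in the same clone went from 0.70 (SE 0.27, adjusted p = 0.109) to 0.71 (adjusted p = 0.00156), all under 2-fold. Over the 1391 genes of chromosome 17 tested, where BECN1 lies, the median log2 change in this clone was 0.42, beside -0.04 over all genes. In batch 2 the median over the 1644 genes of that chromosome was 0.13 for HIF-2α and 0.21 for HIF-1α/2α, beside 0.07 and 0.08 over all genes. PSME3, which overlaps BECN1 on the other strand, had 3651 to 23928 reads. In batch 2 it changed by -0.48 (adjusted p = 2.97e-10) with HIF-2α and -0.21 (adjusted p = 0.00141) with HIF-1α/2α. The parts of the chromosome and of this overlap in the BECN1 values were not tested.

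BCL2L13 (ENSG00000099968.18, chr22:17628855-17730855, plus strand), a receptor related to the BCL2 family, fell with HIF-2α in the second batch, from 8173, 8542 and 8682 normalized counts in WT to 6478, 6568 and 6767, without overlap. The log2 change was -0.36 (SE 0.05, adjusted p = 2.32e-07), and in the first batch it was -0.28 (95% interval -0.65 to 0.10, adjusted p = 0.365). Its IDR effect was -0.15 (SE 0.04, adjusted p = 0.0015). FUNDC1 (ENSG00000069509.6, chrX:44523639-44542859, minus strand), a receptor known to respond to low oxygen through its phosphorylation, passed the test in no comparison. It was at 767 to 1024 normalized counts over the libraries of the second batch and 225 to 483 over those of the first. Its libraries with HIF-1α/2α lay above all others without overlap, with a log2 change of 0.20 (SE 0.09, adjusted p = 0.0733) from WT. That interval reached 0.38, short of a 2-fold rise.

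HIF-1α and HIF-2α lines were sequenced in both batches, and their changes from the WT cells of each batch were compared in a joint fit. No member passed the test, beside 0.00374% of the 26763 genes tested called for HIF-1α and 0% for HIF-2α. At an unadjusted p under 0.05 by the same edgeR test, 1 member differed for each protein and none by the adjusted p. It was BNIP3 in both, whose log2 change with HIF-1α differed by -0.34 (95% interval -0.60 to -0.08, adjusted p = 0.896), batch 2 minus batch 1. For HIF-2α the difference in BNIP3 was -0.52 (95% interval -0.78 to -0.26, adjusted p = 0.121), and DESeq2 gave -0.44 with an adjusted p of 0.000925, under 2-fold. The separate fits lay closer together, at 2.54 and 2.72 for HIF-1α and at -0.36 and 0.02 for HIF-2α. The joint fit had its own TMM scaling. Its median difference over all genes was -0.10 for HIF-1α and -0.05 for HIF-2α. The part of this scaling in the differences was not tested. BNIP3L differed by -0.19 (95% interval -0.50 to 0.12, adjusted p = 0.914) for HIF-1α and 0.10 (95% interval -0.21 to 0.41, adjusted p = 0.857) for HIF-2α. The fall of BNIP3 with HIF-2α in the second batch thus had no matching fall in the first, and the difference passed by DESeq2 but not by edgeR.

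The other genes of mitophagy and autophagy were read in 7 lists of 95 genes in all, each tested in both batches. With HIF-1α, 2 of 95 were called higher and none lower in the second batch, beside 4.39% of all genes in either direction, and with HIF-2α 1 of 95 was called higher and none lower, beside 7.58%. The IDR effect called 1 lower (4.41% of all genes) and the structured-domain effect 1 lower (1.04%). By the adjusted p alone, 14 of 95 were higher and 18 lower with HIF-1α, beside 17.2% of all genes in either direction, and 20 were higher and 29 lower with HIF-2α, beside 27.4%. With HIF-2α in the second batch, the median log2 change over all genes was 0.07. The 15 other genes of receptor mitophagy had 3 higher and 8 lower (median -0.28) by the adjusted p, the 10 genes of mitochondrial fission and fusion had 2 higher and 6 lower (median -0.34) and the 14 of lysosomes and their regulators had 9 higher and 3 lower (median 0.32). The 16 genes of the PINK1 pathway had 4 higher and 5 lower (median -0.00012), the 16 of autophagy initiation and BECN1 complexes 2 higher and 1 lower (median 0.06), the 16 of ATG8 conjugation 0 higher and 3 lower (median -0.06), and the 8 of the KEAP1-NRF2 pathway, which SQSTM1 activates, 0 higher and 3 lower (median -0.20).

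The called genes of these lists were few. CTSD, the lysosomal protease cathepsin D, was called higher with HIF-1α and HIF-2α in both batches and in both swaps. It was at 12413, 12775 and 14889 normalized counts in WT of the second batch, at 28343, 28025 and 31246 with HIF-1α and at 43939, 42236 and 46774 with HIF-2α, with log2 changes of 1.13 (SE 0.06, adjusted p = 9.61e-19) and 1.73 (SE 0.07, adjusted p = 1.23e-25). In batch 1 CTSD was at 29591, 35486 and 45997 in WT. HIF-1α R30E (50153 to 77150), HIF-1αDM (50327 to 63803) and HIF-2αDM (50689 to 54654) also lay above every WT library there. HIF-2α R27E, from 40881 to 97822, overlapped WT. CTSD was called higher with HIF-2α than with either of its mutants, but not with HIF-1α than with R30E or HIF-1αDM. HMOX1, the heme oxygenase induced by NRF2, rose with HIF-1α, with log2 changes of 1.50 (SE 0.11, adjusted p = 1.02e-15) in the second batch and 1.54 (SE 0.20, adjusted p = 6.55e-06) in the first, and with HIF-2α/1α, at 1.26 (SE 0.11, adjusted p = 2.9e-13), and its IDR effect was -1.05 (SE 0.07, adjusted p = 3.8e-16). In batch 1 HMOX1 was at 2287, 2210 and 2759 in WT and 5630, 6472 and 8972 with HIF-1α. HIF-1α R30E, at 5097, 3544 and 5075, also lay above every WT library, and HMOX1 was called higher with HIF-1α than with HIF-1αDM but not than with R30E. SRXN1, an antioxidant enzyme, had a structured-domain effect of -1.05 (SE 0.20, adjusted p = 8.59e-05). It was low, at 37.6 to 106 normalized counts with HIF-2α, 49.7 to 140 with HIF-2α/1α, 119 to 187 with HIF-1α/2α and 147 to 252 with HIF-1α. Neighboring groups overlapped, all overlapped WT (93.8 to 171), and none was called against WT. MITF, a transcription factor for lysosomal genes, was lower with HIF-2α than with HIF-1α in the second batch, a log2 difference of -1.04 (SE 0.08, adjusted p = 8.92e-15). It was at 2564, 2660 and 2628 in WT, above these with HIF-1α (3453, 3476 and 3050) and below with HIF-2α (1458, 1500 and 1914). Neither line was called against WT for MITF.

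Among the lines of batch 1, BCL2, which binds BECN1, was called higher in HIF-2α KIN, at 904, 787 and 815 beside 403, 329.9 and 343 in WT, and ATG4A, a protease that processes ATG8 proteins, was called lower there, at 28.8, 81.4 and 105 beside 228, 206 and 171. BCL2 also lay above every WT library in HIF-1β KIN, at 504, 615 and 677, and with HIF-1α R30E, at 557, 669 and 766, and was called lower with HIF-1α than with R30E, a log2 difference of -1.25 (SE 0.18, adjusted p = 3.15e-05). ULK1, the kinase that starts autophagy, was called higher with HIF-2α than with HIF-2αDM, by 1.22 (SE 0.27, adjusted p = 0.00269). It was not called for HIF-2α against WT or against R27E, which had a library at 13330, within the 12443 to 17421 of HIF-2α. The HIF-2α libraries still lay above every WT library, at 6243, 7568 and 9249. In batch 2 ULK1 was at 8649, 8845 and 7985 with HIF-2α and at 4308, 4130 and 4435 in WT, without overlap. That change was not called either. TXNRD1, a thioredoxin reductase, was lower with HIF-2α than in WT in batch 1, with a log2 change of -1.21 (SE 0.26, adjusted p = 0.00197). For the KIN clone the tag and the clone cannot be told apart.

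The log2 changes from WT over the 12 lines were also compared across the 12462 genes that averaged 50 or more normalized counts in both batches. The 12 points share the WT libraries of their batch, so the correlations are descriptions. The 5 genes most like BNIP3 were GYS1, a glycogen synthase (Pearson's r = 0.944), PGAM1, a glycolytic mutase (0.932), FAM162A (0.931), RLF (0.928) and SLC25A36, a mitochondrial carrier (0.920). Those most like BNIP3L were CCDC8 (0.974), ATRN (0.973), SLC38A5, an amino acid transporter (0.969), FUT11 (0.969) and AMPD3, an AMP deaminase (0.967). By Spearman's correlation none of the 5 genes was kept for BNIP3 and 1 for BNIP3L. Between BNIP3 and BNIP3L themselves r was 0.464. Of the other members, PINK1 had an r with BNIP3L of 0.806, which ranked 408 among these genes. FAM162A had 0.421, BECN1 0.111, FUNDC1 -0.508, BCL2L13 -0.596 and SQSTM1 -0.678.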

How the data were processed

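RNA was sequenced from 42 libraries of 786-O cells, 27 in batch 1 (9 groups) and 15 in batch 2 (5 groups), with 3 libraries per group. The deposited values are raw counts of reads per gene, whole numbers that the authors did not normalize. By the study's methods and the submitters' processing notes the authors aligned reads to hg38 with STAR 2.7, used SAMtools 1.9, and counted unique alignments without strand with HTSeq 0.11.1. Versions in the notes and in the methods were not the same throughout. ERCC spike-in RNA was added in batch 1 by the labels and was not used here.

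Each batch was fitted separately with edgeR 4.0.16 in R 4.3.3 (TMM factors, quasi-likelihood test over all groups, group means), on genes that averaged 0.5 or more normalized counts. Calls needed an adjusted p of at most 0.01 and a 2-fold change, both taken from the study's methods. A joint fit of WT, HIF-1α and HIF-2α compared responses between batches, with the batch as a term. In the fits across all genes the 3 libraries of a group are the replicates, and their number limits the precision. DESeq2 1.42.0 and other settings were tried as alternatives. The fits were tested on simulated data. The domain-exchange differences within each partner were computed after the interaction had been seen. The 8 genes and the 7 pathway lists were chosen with earlier results of these data known. A gene of the lists is not reported here and was left out of their counts. Genes named were the 8 members, HIF1A and EPAS1, genes of the lists called in a comparison (at most 3 a list) and the 5 genes most like BNIP3 and like BNIP3L. Symbols came with the files, coordinates from GENCODE release 44 and promoters from a table of RefSeq start sites (GRCh38.p14), in which 6 of the 8 genes were matched. Depth ranges are given with the results, and p-values measure the spread between libraries described as biological replicates, whose cultures are not named.

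Same-numbered libraries were compared by the correlation of their deviations from the group means. In batch 1 it ran from -0.1 to 0.508 (mean 0.242), and in 6 of 12 comparisons every pair was over 0.1. In batch 2 it ran from -0.019 to 0.0243, in 0 of 8 comparisons over 0.1 for every pair. The labels name no shared day or culture. No pair of libraries agreed within sampling noise. Figures were drawn with matplotlib 3.10.9.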

Additional observations from a re-analysis of the deposited data

Results flagged for a closer look

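The effect of the IDR differed between the structured parts for BNIP3 and FAM162A, by the test of the difference itself in the second batch. For BNIP3 the interaction was 2.13 (SE 0.07, adjusted p = 1.84e-25) on the log2 scale, and for FAM162A it was 0.92 (SE 0.11, adjusted p = 1.97e-08). For BNIP3 the 3 HIF-1α libraries (46154, 46840 and 42306 normalized counts) lay above all 3 HIF-1α/2α libraries (7581, 7775 and 7446), and the 3 HIF-2α/1α libraries (8058, 8205 and 8445) above all 3 HIF-2α libraries (6176, 5811 and 6183). With the HIF-1α structured part, FAM162A differed by -1.50 (SE 0.07, adjusted p = 2.58e-21) between the IDRs, and with the HIF-2α structured part by -0.58 (SE 0.08, adjusted p = 1.22e-07). The groups had 3 libraries each, too few for a test of single outlying libraries.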

How the results depend on the processing

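DESeq2, RLE factors, no filter on low counts, fits to the compared groups alone, the replicate block and leaving out single libraries all gave the same counts of members called, and no called value reversed. With the replicate block, HIF-1α still called 3 members higher than WT in batch 1 and HIF-2α 1. What moved were adjusted p-values of changes under 2-fold. In batch 1 the block also brought SQSTM1 in HIF-1α R30E (log2 0.60) to an adjusted p of 0.00722 and FAM162A in HIF-2α against HIF-2αDM (-0.85) to 0.000286, and DESeq2 brought BECN1 in HIF-2α KIN to 0.0012. In batch 2, SQSTM1 with HIF-1α lost the p under DESeq2 (0.0175), RLE factors (0.0145) and without any 1 of 5 libraries, as did SQSTM1 with HIF-2α/1α without 4 libraries in turn and PINK1 with HIF-2α/1α without 2. Others gained it: BCL2L13 with HIF-1α/2α under DESeq2 (0.000465), RLE factors (0.00857), no filter (0.00978) and the block (0.00901), the SQSTM1 structured-domain effect under the block (0.0046) and without HIF-1α/2α library 3 (0.00162), and under DESeq2 PINK1 with HIF-1α (0.00934) and BECN1 in HIF-2α against HIF-1α (0.00172). The cause was not tested.

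Counts of all genes called moved by over 1.5 times in few comparisons. For HIF-1αDM, HIF-2α R27E and HIF-2αDM against WT they were 107, 116 and 111, and became 204, 196 and 203 with DESeq2, 208, 215 and 209 with no filter, 207, 213 and 209 with the block, and 52 to 74 without 1 WT library. Fitted with the compared groups alone, HIF-2α R27E against WT called 3, HIF-1β KIN 195 in place of 322, and HIF-2α against R27E 532 in place of 849. HIF-1α against HIF-1αDM called 198 in place of 320 without HIF-1αDM library 1. For the HIF-2α difference between batches, DESeq2 called 50 genes (38 of them higher) and the fit with no filter 86, in place of 0.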
